A study of Mus musculus with 16 samples.

Results

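The genes described here encode the signaling part of the T-cell receptor and the surface proteins and kinases that work with it. They are 10 of the 18929 genes in the expression table, chosen by gene symbol: Cd3d, Cd3e, Cd3g, Cd247, Cd8a, Cd8b1, Cd4, Lck, Zap70 and Cd2. All 10 passed the filter on low values, which kept genes at 0.5 FPKM (fragments per kilobase of transcript, scaled to the mapped fragments of a library) or more in at least 4 tumors. Messenger RNA was measured in 16 tumors of B16F10 cells, a mouse melanoma line that forms poorly immunogenic tumors in C57BL/6 mice, with 4 tumors in each of 4 groups. The question was how α-ketoglutarate (α-KG), an intermediate of the tricarboxylic acid cycle, changes the tumor when it is added to an antibody against PD1, an inhibitory receptor of activated T cells.

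Female C57BL/6 mice aged 7 to 8 weeks received 500000 B16F10 cells in the right abdomen and were treated by intraperitoneal injection for 9 to 11 days once the tumors reached about 50 cubic millimeters. The vehicle group received corn oil with an IgG isotype control, the anti-PD1 group the PD1 antibody, the α-KG group α-KG at 100 mg/kg, and the α-KG + anti-PD1 group both agents. All mice carried the same transplanted line, so nothing here comes from another melanoma. The RNA came from whole tumor tissue that was not sorted, and therefore a change in a T-cell gene may reflect more T cells or more RNA per T cell, which cannot be told apart. The melanocyte genes Tyrp1, Dct and Pmel averaged 2786, 2717 and 2225 FPKM over the 16 tumors, while the T-cell genes below were at most 63.9 FPKM in any tumor.

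A T cell recognizes peptide antigens with a receptor whose antigen-binding chains have almost no cytoplasmic part. The signal is passed on by the CD3 chains δ, ε and γ (Cd3d, Cd3e, Cd3g) and the ζ chain (Cd247), which carry tyrosine motifs. Lck, a kinase held at the co-receptors CD4 and CD8, phosphorylates these motifs, and the kinase Zap70 then binds to them and phosphorylates adaptor proteins. CD8, a dimer made from the products of Cd8a and Cd8b1, marks cytotoxic T cells and reads class I molecules, CD4 marks helper and regulatory T cells and reads class II molecules, and CD2 is an adhesion and costimulatory receptor of T cells and NK cells. In mice some dendritic cells carry the CD8 α chain without the β chain, and some myeloid cells, mainly plasmacytoid and other dendritic cells and some macrophages, also carry CD4.

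The 3 CD3 genes lie side by side on chromosome 9, and the CD8 genes are neighbors on chromosome 6. In the mouse build mm10, Cd3g spans chr9:44969572-44980431 on the minus strand and Cd3d spans chr9:44981786-44987339 on the plus strand, so that they are divided by 1354 bases and transcribed away from each other. Cd3e follows at chr9:44998740-45009627 on the minus strand. Cd8b1 lies at chr6:71322788-71337494 and Cd8a at chr6:71373427-71379173, both on the plus strand and 35932 bases apart, and Cd4 lies far from them at chr6:124864692-124888221 on the minus strand. The others are Lck at chr4:129548344-129573641, Zap70 at chr1:36761798-36782818, Cd247 at chr1:165788681-165877277 and Cd2 at chr3:101275899-101287939.

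The start regions of the clustered CD3 genes and of Cd8a are shown because these genes rose together in the tumors described below. Each is the RefSeq window from 250 bases before to 50 bases after a start site in GRCm38.p6, the assembly of mm10, written 5′ to 3′ on the strand of the gene. Windows for 7 of the 10 genes were used. The capitals mark CACCTG, the letters of an E-protein motif, or its reverse complement CAGGTG. The windows are chr9:44980382-44980681 (minus strand) for Cd3g, chr9:44981536-44981835 (plus strand) for Cd3d, chr9:45009562-45009861 (minus strand) for Cd3e and chr6:71373177-71373476 (plus strand) for Cd8a.
Cd3g: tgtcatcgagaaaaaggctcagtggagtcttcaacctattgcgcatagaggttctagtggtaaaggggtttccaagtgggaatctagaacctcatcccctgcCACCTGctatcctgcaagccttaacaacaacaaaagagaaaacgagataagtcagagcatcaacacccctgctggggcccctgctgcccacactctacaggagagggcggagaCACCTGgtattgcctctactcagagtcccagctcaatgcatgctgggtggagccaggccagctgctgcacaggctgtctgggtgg
Cd3d: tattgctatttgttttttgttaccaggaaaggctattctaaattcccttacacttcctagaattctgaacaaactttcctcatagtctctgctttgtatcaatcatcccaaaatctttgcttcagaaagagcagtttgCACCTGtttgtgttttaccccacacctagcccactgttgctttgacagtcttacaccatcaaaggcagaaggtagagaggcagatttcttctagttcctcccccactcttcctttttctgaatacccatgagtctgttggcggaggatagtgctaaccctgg
Cd3e: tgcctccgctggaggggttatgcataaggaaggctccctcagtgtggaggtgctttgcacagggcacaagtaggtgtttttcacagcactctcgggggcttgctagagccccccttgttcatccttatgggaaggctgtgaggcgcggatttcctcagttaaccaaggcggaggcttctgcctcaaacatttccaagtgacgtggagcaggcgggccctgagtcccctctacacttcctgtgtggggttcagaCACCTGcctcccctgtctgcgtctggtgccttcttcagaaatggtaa
Cd8a: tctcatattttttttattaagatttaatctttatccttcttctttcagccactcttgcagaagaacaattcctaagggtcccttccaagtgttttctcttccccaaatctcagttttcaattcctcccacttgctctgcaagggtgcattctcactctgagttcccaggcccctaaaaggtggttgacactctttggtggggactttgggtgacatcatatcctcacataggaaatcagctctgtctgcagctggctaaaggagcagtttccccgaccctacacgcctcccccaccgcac
The CACCTG letters start 148 and 35 bases before the Cd3g start site, 112 bases before that of Cd3d and 3 bases after that of Cd3e, and the Cd8a window has none. Searched on both strands, they were in 8 of the 10 windows, from 6 of the 7 genes (Cd247, Cd3d, Cd3e, Cd3g, Lck and Zap70). They were in 20.2% of 32851 mouse windows of the same length. Genes with more windows have more chances of a match, so the shares compare with the counts of windows. GGAAGT, the core of an ETS motif, was in 6 of the 10 windows, from 5 of the 7 genes, and in 23.8% of all windows. The RUNX letters TGTGGT were in 2 of the 10, from Lck and Zap70, and in 16.8% of all. The GATA letters AGATAA (11.2% of all windows) were found only in the Cd3g window. The TCF letters CTTTGT (18.7%) were in 3 of the 10, from Cd3d, Lck and Zap70, and TATAAA (13.6%) was in none. These 6 sets of letters were chosen after the windows had been read. A match describes the letters of a window and does not show that a factor binds there.

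Before the members are described, some facts of the whole table bear on them. The FPKM values of a tumor summed to between 514180 and 654772, and 15718 to 16355 genes were above 0. Tumors of a group resembled each other with Pearson's r of 0.967 to 0.993 over genes as log2(FPKM + 1). Genes of red cells set the α-KG + anti-PD1 group apart: hemoglobin genes took 2.09 to 2.23% of the summed FPKM in its 4 tumors and 4.23 to 22.3% in the other 12. The number of reads behind each value is unknown, and low values, under about 1 FPKM, carry the least precision.

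The CD3 chains were low in vehicle tumors and highest in α-KG + anti-PD1 tumors, with the other groups between. Cd3g, the chain with the largest difference, was at 1.73, 1.07, 0.14 and 0.07 FPKM in vehicle tumors 1 to 4, whereas α-KG + anti-PD1 tumors 1 to 4 had 63.9, 16.7, 43.9 and 6.46 FPKM. Every tumor of the combination was above every vehicle tumor, by a mean of 32.8 ± 26.1 against 0.752 ± 0.795 FPKM (SD, n = 4). The log2 fold change was 3.94 (standard error, SE, 0.62, limma adjusted p = 0.000476), on the log2(FPKM + 1) scale used throughout, which understates the change of genes near 1 FPKM or below. Cd3e, the chain most often used to identify T cells, was at 0.98, 0.50, 0.09 and 0.18 FPKM with vehicle and at 25.6, 6.30, 19.8 and 2.37 FPKM with the combination. Cd3d was at 1.09, 0.81, 0 and 0.38 FPKM against 22.2, 6.52, 20.0 and 2.95 FPKM. The groups did not overlap for either chain. The ζ chain gene Cd247 was at 1.37, 0.92, 0.19 and 0.37 FPKM in vehicle and 13.7, 5.76, 13.5 and 2.43 FPKM in the combination. Its log2 fold change of 2.34 (SE 0.42, limma adjusted p = 0.000792) was the lowest of the 4 chains.

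The co-receptor genes followed the CD3 chains, the CD8 genes more steeply than Cd4. Cd8a was at 1.13, 0.68, 0.07 and 0.16 FPKM in vehicle and at 30.5, 10.0, 25.2 and 3.11 FPKM with the combination. Cd8b1, the β chain gene, which T cells use and CD8+ dendritic cells lack, was at 2.74, 1.34, 0.54 and 0.47 FPKM against 47.7, 18.3, 39.3 and 4.95 FPKM. Its log2 fold change was 3.37 (SE 0.63, limma adjusted p = 0.000946). Cd4 was the lowest of the 10 genes in the combination, with 6.06, 1.32, 3.97 and 1.21 FPKM, and it was at 0.46, 0.42, 0.09 and 0.22 FPKM in vehicle. Again no tumor of one group reached the other, and the log2 fold change of Cd4 was 1.51 (SE 0.32, limma adjusted p = 0.00201), the smallest of the 10 on this scale. With a pseudocount of 0.1 that of Lck was smaller (2.61, against 2.84 for Cd4), as was the ratio of its group means.

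The kinase genes and Cd2 were higher in the combination as well. Lck, the kinase that starts the signal, had the highest level of the 10 in vehicle tumors, with 2.95, 2.89, 1.91 and 1.77 FPKM, and was at 30.5, 10.3, 28.4 and 5.14 FPKM in the combination. Zap70, the kinase that follows Lck, was listed at 0.59, 0.38, 0.05 and 0 FPKM in vehicle and at 14.5, 5.01, 13.9 and 2.18 FPKM with the combination. For both genes the groups were apart, with log2 fold changes of 2.25 for Lck and 2.72 for Zap70. Cd2 was at 2.45, 1.06, 0.30 and 0.18 FPKM against 29.4, 8.69, 29.4 and 3.70 FPKM, a log2 fold change of 2.98 (SE 0.55, limma adjusted p = 0.000845).

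**Figure D1:**
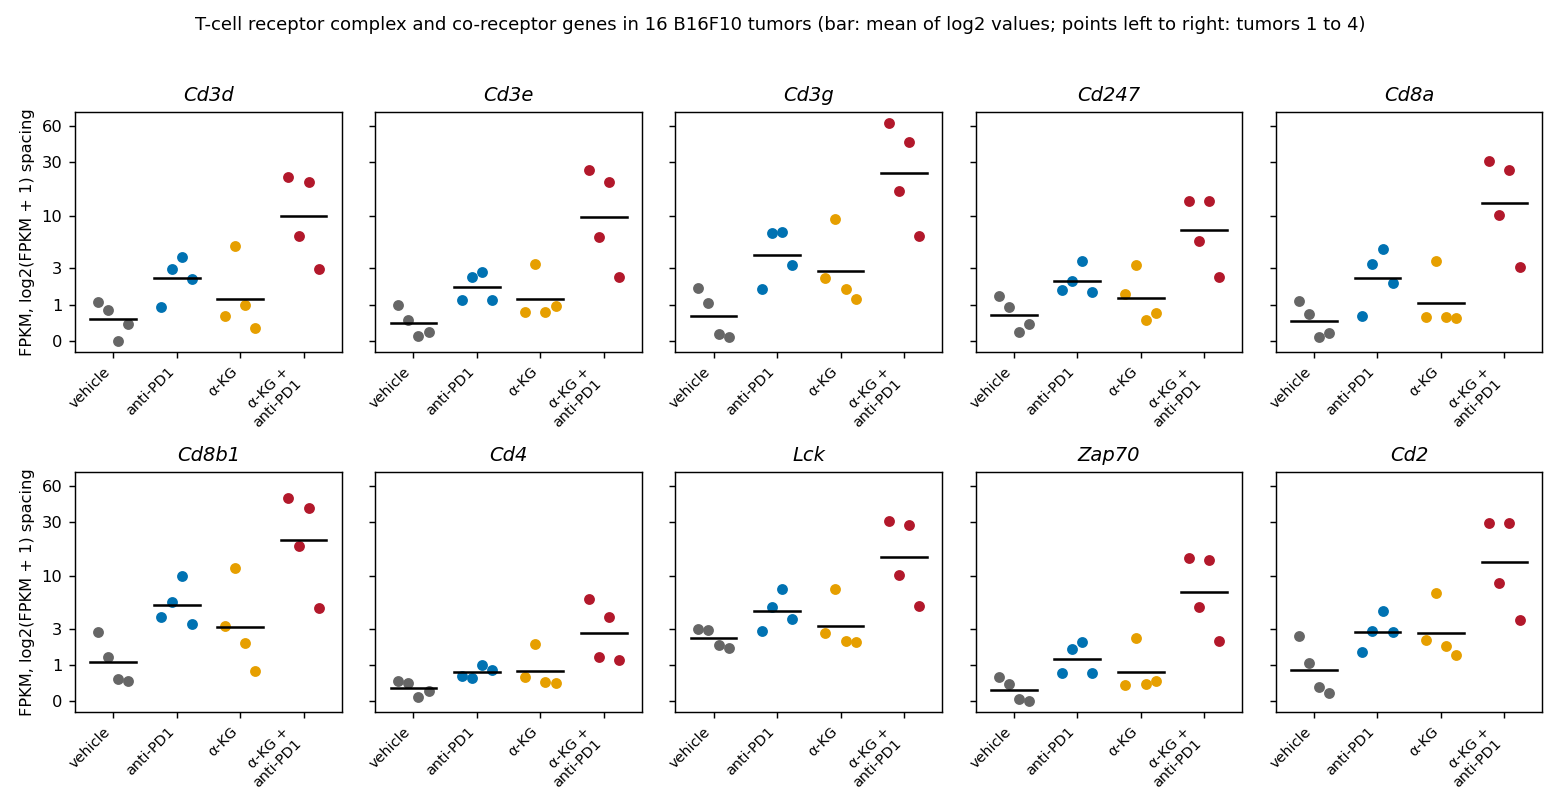
FPKM of the 10 genes in each of the 16 tumors, on an axis spaced as log2(FPKM + 1), with points for tumors 1 to 4 from left to right in each group and a bar at the mean of the log2 values. The red points of the α-KG + anti-PD1 group lie above all gray vehicle points in every panel, and α-KG tumor 2 stands above the other α-KG tumors in every panel.

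All 10 genes were therefore higher in α-KG + anti-PD1 than in vehicle tumors by limma's test with Benjamini-Hochberg adjustment over 12850 genes, with adjusted p values of 0.000476 to 0.00201. This was also true of 34.9% of all genes tested, and the 10 of 10 that did not overlap between the groups compare with 28.2% of all genes. The median of their log2 fold changes was 2.91, and that of all genes tested was 0.15. The ratio of the group means ran from 7.80 for Lck to 43.5 for Cd3g. The call held for all 10 genes under each of the 27 alternatives run for this comparison, in which their log2 fold changes lay between 1.09 and 5.44. Some alternatives, such as leaving out an anti-PD1 or α-KG tumor, can change the error and the call but not the fold change. Over all genes the direction of the calls depended on the scaling. As deposited, 4479 genes were higher and 1348 lower, after quantile normalization 2241 and 3994, after each tumor had been centered on its median 2197 and 4803, and after rescaling to the same FPKM sum 6294 and 250. The median of all genes moved from 0.15 to -0.11, -0.16 and 0.34 under these scalings, and the median of the 10 genes to 2.58, 2.59 and 3.06.

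Anti-PD1 alone gave values between those of the vehicle and combination groups. Cd8b1 was at 4.03, 5.71, 9.89 and 3.36 FPKM in anti-PD1 tumors 1 to 4, all above the vehicle tumors. Cd3g was at 1.70, 6.85, 7.10 and 3.28 FPKM, and tumor 1 lay just under the highest vehicle tumor. Lck, at 2.85, 5.09, 7.53 and 3.84 FPKM, also overlapped with vehicle in tumor 1. None of the 10 genes passed the limma test against vehicle, where 0.467% of all genes were called higher, and 4 of the 10 had an unadjusted p under 0.05 (Cd3g, Cd247, Cd8a and Cd8b1). The log2 fold changes ran from 0.44 for Cd4 to 1.68 for Cd3g, with a median of 1.03 against 0.03 for all genes. Every anti-PD1 tumor lay above every vehicle tumor for 5 of the 10 genes (Cd3e, Cd247, Cd8b1, Cd4 and Zap70), as for 5.00% of all genes. The smallest adjusted p of the 10 was 0.197, for Cd3g, whose log2 fold change had a standard error of 0.62.

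α-KG alone gave a single high tumor and 3 low ones. Cd8a was at 0.59, 3.63, 0.58 and 0.56 FPKM in α-KG tumors 1 to 4, Cd3e at 0.73, 3.32, 0.74 and 0.96 FPKM, and Cd4 at 0.60, 1.98, 0.44 and 0.42 FPKM. Tumor 2 was the highest of the 4 for each of the 10 genes, and by over 1.5 times. None of the 10 passed the limma test against vehicle, at which 8.40% of all genes were higher, and none had an unadjusted p under 0.05. Their log2 fold changes were 0.33 to 1.23, with a median of 0.54 against -0.04 for all genes. Without tumor 2 the median was 0.20, with values from -0.0070 for Lck to 0.75 for Cd3g. Tumor 2 also had the highest summed level of the 6 B cell genes of all 16 tumors, 36.9 FPKM, against 5.44, 10.6 and 7.01 FPKM in α-KG tumors 1, 3 and 4, and its part in the T-cell values was not tested. No gene of the 10 was free of overlap with vehicle, compared with 10.1% of all genes. These values, those of anti-PD1 and those of the combination were all set against the same 4 vehicle tumors.

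**Figure D2:**
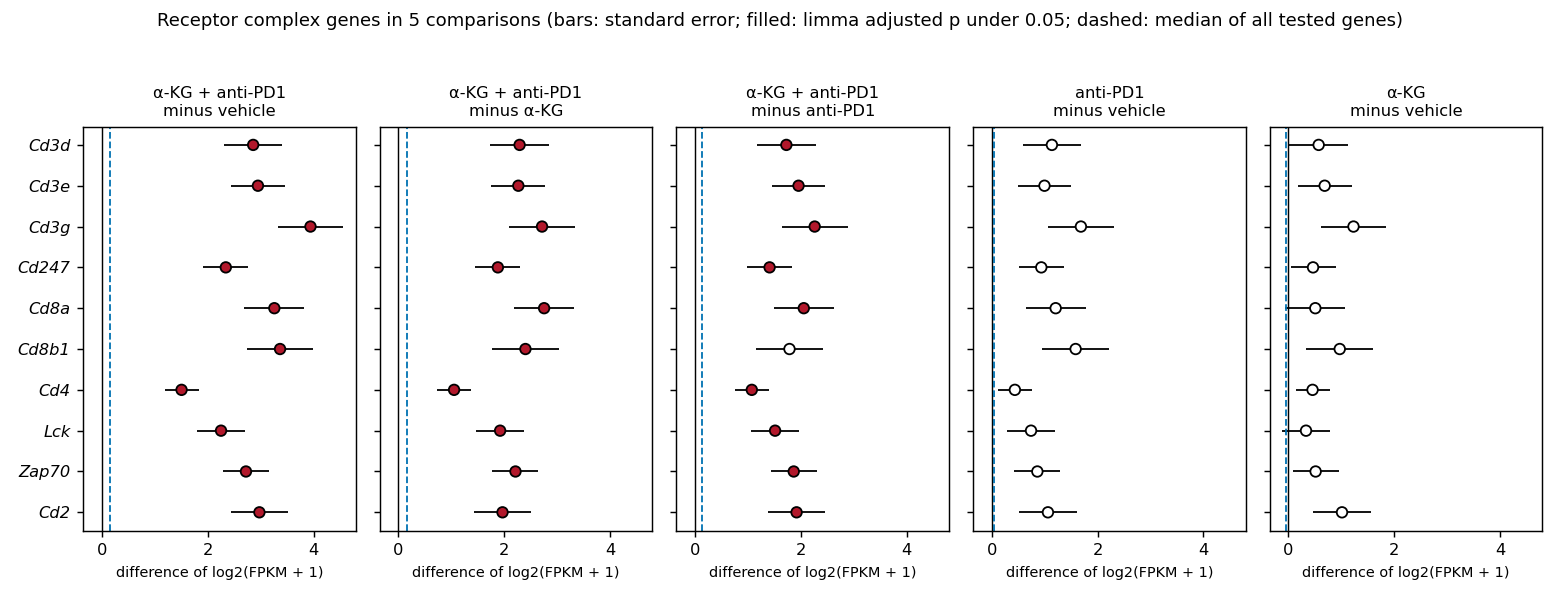
Difference of log2(FPKM + 1) between group means for each of the 10 genes in 5 comparisons, with bars of 1 standard error, filled points for a limma adjusted p under 0.05 and a dashed line at the median of all genes tested. All 10 points are filled against vehicle and against α-KG, 9 against anti-PD1 (Cd8b1 is open), and none for either agent alone.

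Against α-KG alone, all 10 genes were higher in the combination, with log2 fold changes from 1.05 for Cd4 to 2.75 for Cd8a and adjusted p values of 0.00179 to 0.0180 (limma). Here 31.8% of all genes were higher. The median over the 10 genes was 2.24, against 0.16 over all genes. None of the 10 was free of overlap, compared with 29.7% of all genes, since α-KG tumor 2 reached above α-KG + anti-PD1 tumor 4. Cd4 was not called after quantile normalization, after centering, with only these 8 tumors fitted, or without combination tumor 1 or 3 or α-KG tumor 3, with adjusted p values up to 0.0654, while the other 9 genes were called in each of these.

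Against anti-PD1 alone, the genes were also higher in the combination, but the calls depended on single tumors. Log2 fold changes ran from 1.07 for Cd4 to 2.26 for Cd3g, with a median of 1.82 against 0.12 for all genes. Of the 10 genes 9 were called, with adjusted p values of 0.0175 for Zap70 to 0.0466 for Cd3d (limma), and 14.2% of all genes were called higher. Cd8b1, at a log2 fold change of 1.78 (SE 0.63), had an adjusted p of 0.0630. For Cd4 and Zap70 every α-KG + anti-PD1 tumor lay above every anti-PD1 tumor, as for 13.6% of all genes. For the other 8 genes tumor 4 of the combination lay below the highest anti-PD1 tumor, and the other 3 tumors lay above all. Leaving out anti-PD1 tumor 1, anti-PD1 tumor 4 or combination tumor 3 gave 0 calls among the 10 genes, leaving out combination tumor 1 gave only Zap70, and leaving out combination tumor 4 gave all 10. With a pseudocount of 0.1, 3 genes passed, with no filter on low values 4, after quantile normalization 5, and with only these 8 tumors fitted 0. The direction did not change in any of them, and the log2 fold changes stayed between 0.76 and 2.84.

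The agents given alone were not distinguished by these genes. None of the 10 passed between α-KG and anti-PD1, where 3.16% of all genes were called in either direction, and none had an unadjusted p under 0.05 (limma). The log2 fold changes of α-KG minus anti-PD1 ran from -0.70 for Cd8a to 0.02 for Cd4. The interaction, which compares what anti-PD1 adds in the presence and in the absence of α-KG, was positive for all 10 genes, between 0.61 for Cd4 and 1.55 for Cd8a. Its size depended on the settings. Over the alternatives it stayed positive, from 0.17 for Cd3g with a pseudocount of 0.1 (1.03 with 1) to 2.13 for Cd8a with a tumor left out. None of the 10 passed, against 7.99% of all genes called higher, and only Zap70 had an unadjusted p under 0.05 (limma interaction 1.35, standard error 0.61, adjusted p = 0.155). Without α-KG + anti-PD1 tumor 4, Zap70 passed and the other 9 did not.

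The spread within the combination was wide and ran the same way in nearly every gene. Tumor 1 was the highest, then tumors 3, 2 and 4, for 9 of the 10 genes, and Cd2 had tumors 3 and 1 in the other order. The highest tumor exceeded the lowest by 5.01 times for Cd4 and 10.8 times for Cd3e. In the same way, vehicle tumor 1, anti-PD1 tumor 3 and α-KG tumor 2 were the highest of their groups for all 10 genes. In the group of 4 with the highest values, Cd3g led with a mean of 32.8 FPKM, followed by Cd8b1 at 27.6, Lck at 18.6, Cd2 at 17.8, Cd8a at 17.2, Cd3e at 13.5, Cd3d at 12.9, Zap70 at 8.88, Cd247 at 8.83 and Cd4 at 3.14. FPKM is a level per transcript length, but the lengths used are unknown, so the order between genes is approximate. The ranges of all neighbors in this order overlapped, but Cd8a was above Cd3e, Cd3d above Zap70 and Cd247 above Cd4 in 4 of 4 tumors.

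Relative levels within a tumor also differed between groups. Lck exceeded Cd3e by 3.01 to 21.2 times in vehicle tumors, 2.15 to 3.25 times in anti-PD1, 2.20 to 3.70 times in α-KG and 1.19 to 2.17 times in α-KG + anti-PD1 tumors. The vehicle ratios rest on Cd3e values under 1 FPKM. NK cells also express Lck, and their part in these ratios was not tested. The NK receptor genes Klrc1 and Klre1 averaged 0.273 and 0.0575 FPKM in vehicle and 6.88 and 4.91 FPKM in combination tumors. Cd8b1 exceeded Cd8a by 1.56 to 1.82 times in the 4 combination tumors, a narrow range, and by 1.41 to 7.71 times in the other groups, where most Cd8a values were near or below 1 FPKM. Cd3g exceeded Cd3d by 2.19 to 2.88 times in the combination. These ratios were not tested.

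The balance of Cd8a to Cd4 compares the co-receptor of cytotoxic T cells with that of helper T cells, with the limit that myeloid cells can add to Cd4. The ratio of Cd8a to Cd4 FPKM was 2.46, 1.62, 0.778 and 0.727 in vehicle tumors 1 to 4 and 0.983, 1.83, 1.32 and 1.33 in α-KG tumors 1 to 4. It was 0.984, 6.07, 4.80 and 2.49 in anti-PD1 tumors and 5.03, 7.61, 6.34 and 2.57 in α-KG + anti-PD1 tumors. Every combination tumor thus had a higher ratio than every vehicle and every α-KG tumor, with medians of 5.69, 1.20 and 1.33, whereas the anti-PD1 tumors, with a median of 3.65, overlapped with all groups. Most vehicle and α-KG ratios rest on values of both genes under 1 FPKM, such as 0.07 and 0.09 FPKM in vehicle tumor 3. Those ratios are therefore imprecise.

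On the log2((Cd8a + 1)/(Cd4 + 1)) scale the combination exceeded vehicle by 1.75 (SE 0.37, n = 4 a group) and α-KG by 1.70 (SE 0.37). Both had an exact two-sided permutation p of 0.029, the smallest that 4 against 4 tumors allow, and 0.0857 after adjustment over the 6 comparisons, so neither passed 0.05 after adjustment. Against anti-PD1 the difference was 0.98 (SE 0.50, exact p = 0.0857, adjusted 0.171). Anti-PD1 exceeded vehicle by 0.77 (SE 0.39, exact permutation p = 0.114, adjusted 0.171) and α-KG differed from vehicle by 0.05 (SE 0.20, exact permutation p = 0.771). α-KG differed from anti-PD1 by -0.72 (SE 0.39, exact permutation p = 0.171, adjusted 0.206). Without anti-PD1 tumor 1, anti-PD1 exceeded vehicle by 1.09 and α-KG differed from anti-PD1 by -1.03, each with an adjusted exact permutation p of 0.0429. The exact p values of the combination against vehicle and α-KG do not involve that tumor and stayed at 0.029. The adjusted value was lower because more comparisons shared this smallest p, and it applies to the combination contrasts too. It does not set anti-PD1 above the combination. With the mean of Cd8a and Cd8b1 in place of Cd8a, the combination exceeded vehicle by 1.82 (exact permutation p = 0.0286, adjusted 0.0857) and α-KG by 1.46 (exact permutation p = 0.0571, adjusted 0.114). Anti-PD1 exceeded vehicle by 1.02 there (exact permutation p = 0.0286, adjusted 0.0857).

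**Figure D3:**
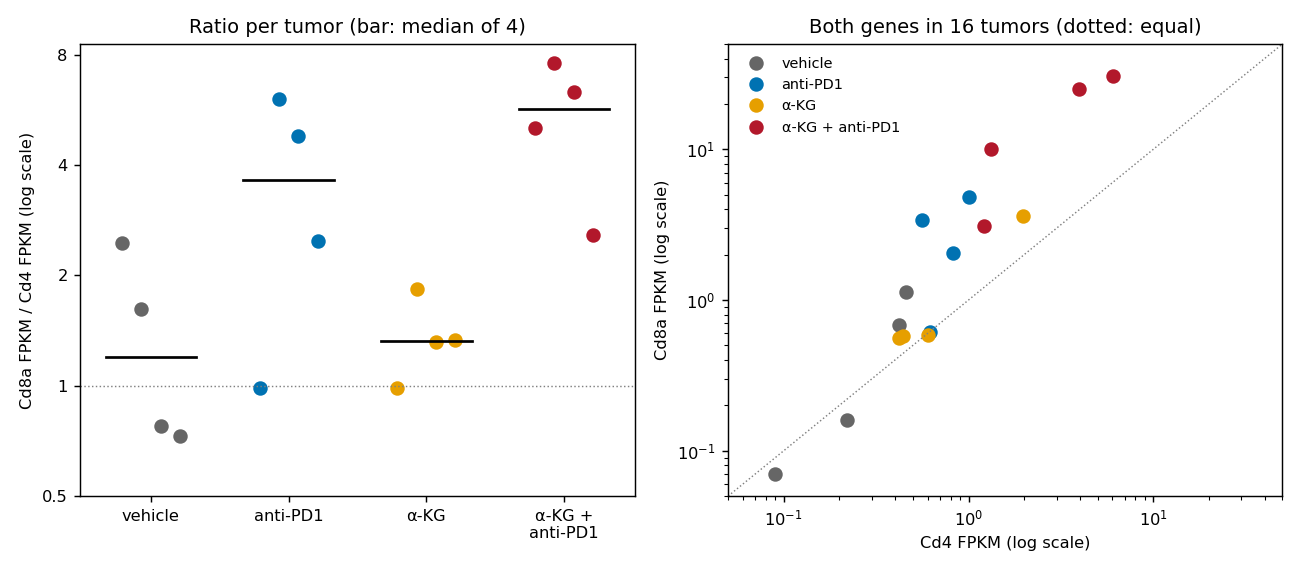
Left, ratio of Cd8a to Cd4 FPKM in each tumor on a log axis, with a bar at the group median and tumors 1 to 4 from left to right; right, both FPKM values of the 16 tumors on log axes, with a dotted line where they are equal. The 4 combination tumors have ratios of 2.57 to 7.61, above all vehicle (0.727 to 2.46) and α-KG tumors (0.983 to 1.83).

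Since Cd4 is also found on myeloid cells, Cd4 and Cd8a were set against Cd3e, a gene of T cells, and Csf1r, the receptor for the growth factor of macrophages and monocytes. Group means were removed first, so that the relations are between tumors of the same treatment, and permutations were made within groups. Cd4 followed Cd3e (r = 0.910, 16 tumors, permutation p = 0.00105, adjusted 0.0014 over 4 relations, rho = 0.857, permutation p = 0.00663, adjusted 0.00663), and r was 0.862 without the 2 tumors with the most extreme Cd3e. The relation of Cd4 with Csf1r had r = 0.612 (permutation p = 0.0135, adjusted 0.0135, rho = 0.732, permutation p = 0.00572, adjusted 0.00663), and r was 0.690 without the 2 most extreme tumors. After quantile normalization it was 0.580 and did not pass (adjusted permutation p = 0.0636). For Cd8a the values were 0.956 with Cd3e (permutation p = 3e-05, adjusted 0.00012, rho = 0.861, permutation p = 0.00032, adjusted 0.00128) and 0.704 with Csf1r (permutation p = 0.0005, adjusted 0.001, rho = 0.779, permutation p = 0.00065, adjusted 0.0013). Without the 2 most extreme tumors they were 0.924 and 0.769. The differences between these r values were not tested, and Cd4 was at lower levels than Cd8a in most tumors, which can lower its r. How much of the Cd4 signal came from myeloid cells was not tested.

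**Figure D4:**
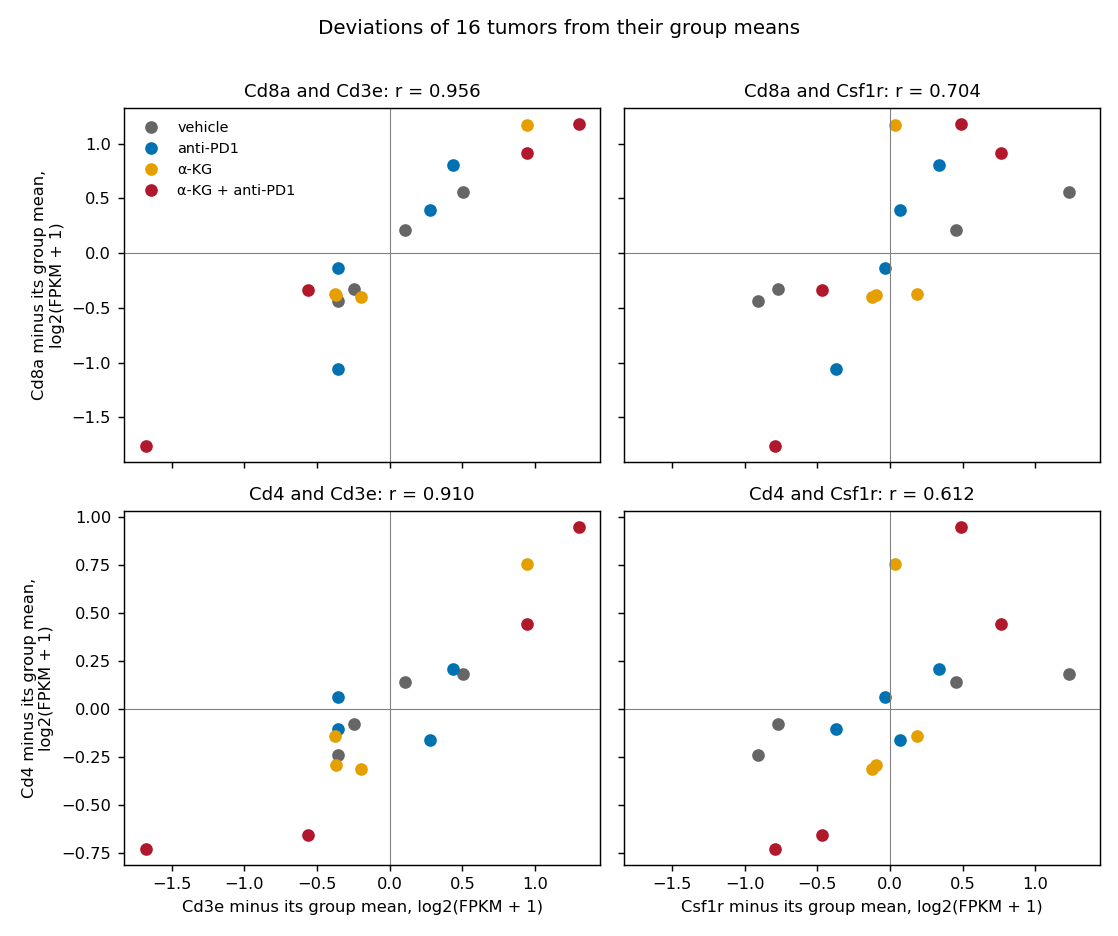
Cd8a (top) and Cd4 (bottom) against Cd3e (left) and Csf1r (right), each as the deviation of a tumor from its group mean on the log2(FPKM + 1) scale, for 16 tumors colored by group. Points lie closer to a line with Cd3e (r = 0.956 and 0.910) than with Csf1r (r = 0.704 and 0.612).

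Of the 10 genes, Cd4 was also the least like the rest. Its Pearson r with the mean log2(FPKM + 1) of the other 9 was 0.957 over the 16 tumors, against 0.978 to 0.992 for the others, and 0.907 against 0.95 to 0.989 after group means were removed. Among the 12840 other genes tested, those most like the mean of the 10 over 16 tumors were Gimap3 (r = 0.995), Thy1 (0.995), Ms4a4b (0.993), Ptprcap (0.991) and Gimap4 (0.991). Gimap3 and Gimap4 encode GTPases of lymphocytes, Thy1 a surface glycoprotein of T cells, and Ptprcap a partner of the leukocyte phosphatase CD45. With group means removed they were Thy1 (0.988), Gimap3 (0.988), Tox (0.982), Ms4a4b (0.981) and Pglyrp2 (0.978). These are descriptions over tumors that share treatments and, in the first list, group differences.

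A list of 33 other genes of T-cell receptor signaling holds adaptors, kinases and phosphatases, some of them shared by other leukocytes. Of the 32 tested, 29 were higher and none lower in the combination than in vehicle, where 34.9% of all genes were higher. The median over the list was 1.59. The largest were Sh2d2a, an adaptor that binds Lck, at 3.39 (0.552 and 19.8 FPKM in the means of vehicle and combination, adjusted p = 0.000728), Ptprcap at 3.39 (1.20 and 26.9 FPKM, adjusted p = 0.000686) and Ptprc, the gene of CD45, at 3.01 (2.01 and 24.1 FPKM, adjusted p = 0.000417). The smallest were Nfatc2, a transcription factor, at -0.13 (21.1 and 19.2 FPKM, adjusted p = 0.348), Plcg1, a phospholipase, at -0.05 (13.8 and 13.4 FPKM, adjusted p = 0.686) and Csk, the kinase that restrains Lck, at 0.41 (68.7 and 92.2 FPKM, adjusted p = 0.000828). In vehicle tumors these genes were far above Cd3e, at a mean of 0.4375 FPKM, and which cells they came from was not tested. Sit1, a transmembrane adaptor, was the third gene that did not pass (log2 fold change 0.61, adjusted p = 0.0583). Against anti-PD1 23 of the 32 were higher (14.2% of all genes) and against α-KG 21 (31.8% of all), with none lower in either. Anti-PD1 alone gave 0 calls against vehicle, with 10 genes at an unadjusted p under 0.05, and α-KG alone gave 6 higher (limma, 8.40% of all genes). Not all members of the list followed the receptor complex in α-KG tumors: Ptprc, which is also in the leukocyte list below, had means of 19.4 FPKM with α-KG and 24.1 with the combination, Lcp2 13.1 and 14.9, and Vav1 6.26 and 7.08. For the constant parts of the antigen-binding chains 7 gene symbols were looked up, and 0 of the 7 had values, so these chains could not be described.

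Genes linked to the CD8 or CD4 lineage of T cells were compared as well, and other cells may also express them, which was not tested. All 4 tested genes of the CD8 lineage list, of which Cd8b1 is itself among the 10, were higher in the combination than in vehicle. Of all genes tested 34.9% were higher there. The others were Runx3, a transcription factor of CD8 T cells (0.787 and 7.18 FPKM, log2 fold change 1.96), Gzmk (0.198 and 6.78 FPKM, 2.24) and Eomes (1.62). Runx3 was at 3.53 ± 0.469 FPKM (SD, n = 4) in α-KG tumors, in 3 of which Cd8a was at 0.56 to 0.59 FPKM. Of the 5 tested in the CD4 lineage list 4 were higher. Of these, Foxp3 was low in the other groups and could pass the filter on low values mainly through combination tumors. Zbtb7b, which encodes the CD4 lineage factor ThPOK, was at 17.7 and 23.9 FPKM (log2 fold change 0.40, adjusted p = 0.0283). It was above Cd4 in the mean of every group. Ctla4 (0.325 and 4.68 FPKM, 2.01) and Foxp3 (0.242 and 1.85 FPKM, 1.14), genes of regulatory T cells, and Icos (1.20) were higher too. Il2ra did not pass (1.67 and 2.75 FPKM, log2 fold change 0.49, adjusted p = 0.148).

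Markers of other cells also differed between these groups, and their part in the results above was not tested. All 10 macrophage and monocyte markers were higher in the combination than in vehicle, where 34.9% of all genes tested were higher. Their median was 2.39 on the log2 scale, with a summed level of 956 to 2474 FPKM against 136 to 622 FPKM. The most abundant were Lyz2, C1qc and C1qa. This list differed with either agent alone too: 7 of 10 were higher in α-KG tumors, whose sum was 1047 to 1375 FPKM, and 3 of 10 in anti-PD1 tumors, at 654 to 1138 FPKM. Over all genes tested these shares were 8.40% and 0.467%. Csf1r was at 11.1, 6.03, 1.74 and 2.01 FPKM in vehicle tumors 1 to 4 and at 21.8 to 27.3 FPKM in α-KG tumors, where the T-cell genes stayed low in 3 of the 4. Of 7 genes shared by all leukocytes 6 were higher in the combination than in vehicle. The most abundant of the 7 were Arhgdib, which was not called (0.11), Cd52 and Laptm5. In α-KG against vehicle 6 of the 7 were higher as well, and 0 of the 7 were called between the combination and α-KG (limma, 1 with an unadjusted p under 0.05). Between the combination and α-KG 31.8% of all genes were higher.

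The lists of cells that can carry CD4 or CD8 α, or share Lck and Cd2, gave these counts for the combination against vehicle. The share of all genes tested that were higher there was 34.9%. All 5 tested NK cell genes were higher, with a summed level of 87.8 to 277 FPKM over 8 genes against 12.9 to 47.0 FPKM. Klrb1c, Klri2 and Klra8 did not pass the filter on low values, and Klra8 was listed at 0 in every vehicle tumor. Ncr1 averaged 0.01, 0.2275 and 0.105 FPKM in vehicle, anti-PD1 and α-KG tumors. It could pass the filter mainly through combination tumors (1.65 FPKM), so this count partly follows from the filter. Most of the NK cell sum is Tyrobp, which myeloid cells share, and the sum was 147 to 225 FPKM in α-KG tumors. Tyrobp had means of 26.0 FPKM in vehicle, 189 in α-KG and 156 in the combination, whereas the NK receptor genes Klrc1 (0.273, 0.265 and 6.88 FPKM) and Klre1 (0.0575, 0.228 and 4.91 FPKM) were low in α-KG tumors. All 6 tested genes of type 1 dendritic cells were higher, by a median of 0.79, with sums of 66.6 to 83.8 against 34.7 to 66.4 FPKM, and the most abundant were Cadm1, Tlr3 and Batf3. Of the 5 tested genes of plasmacytoid dendritic cells 4 were higher, with sums of 152 to 299 against 46.0 to 106 FPKM. Most of this sum is Bst2 (63.3 and 210 FPKM), followed by Tcf4 (log2 fold change 0.61) and Cox6a2, which was not called (-0.62). Siglech, the most particular of them, was at a mean of 0.365 FPKM in vehicle and 1.69 FPKM in the combination (log2 fold change 0.89). Of the 3 tested B cell genes (Cd79a, Cd79b and Cd22) only Cd22 was higher, a share near that of all genes. The B cell sums of 4.57 to 11.8 and 5.37 to 8.11 FPKM overlapped.

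The melanoma and red cell lists went the other way or did not move. Of 7 melanocyte genes none was higher and 2, Tyr (-0.48) and Tyrp1 (-0.34), were lower in the combination than in vehicle, and the sums of 7845 to 9646 and 8288 to 10090 FPKM overlapped. Of all 12850 genes tested, 1348 were lower in this comparison. All 7 red cell genes were lower, with log2 fold changes of -3.31 to -2.80 (the most abundant were Hba-a1, Hbb-bs and Hba-a2), with sums of 10890 to 11750 against 63150 to 107500 FPKM. When each tumor was rescaled to the same sum without hemoglobin genes, all 10 receptor complex genes were still called higher, with a median of 2.93. How the amount of blood in the tumors bears on the T-cell genes was not tested.

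**Figure D5:**
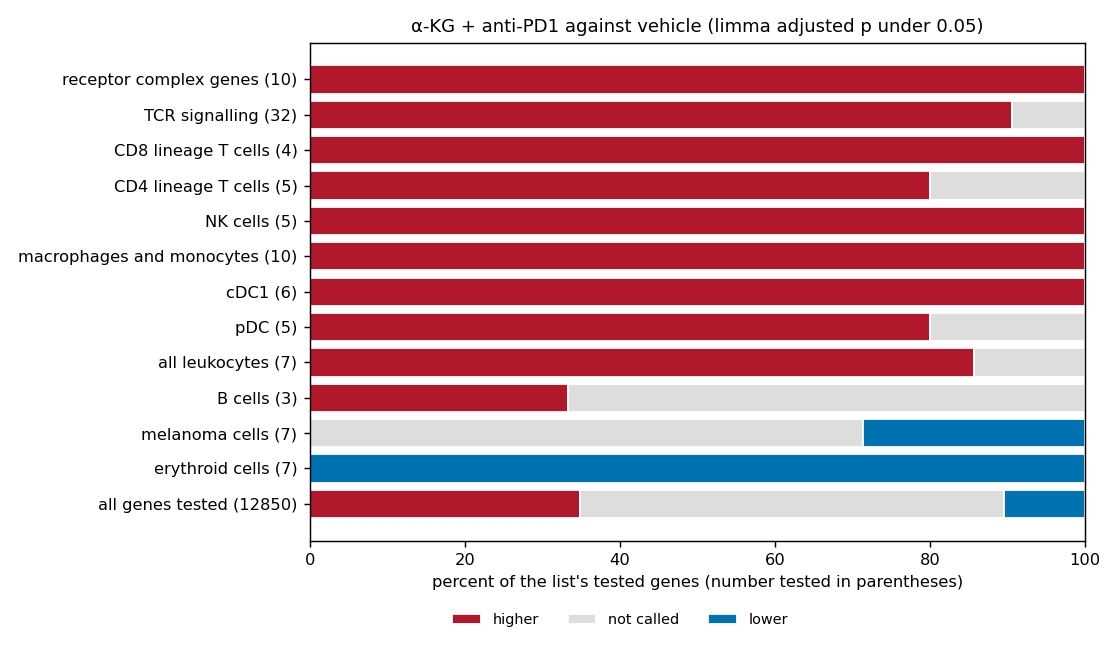
Percent of the tested genes of each list that were higher, lower or not called in α-KG + anti-PD1 against vehicle tumors, with the number tested beside each name. All 10 receptor complex genes and 29 of 32 signaling genes were higher, against 34.9% of all genes tested. All 7 red cell genes were lower, against 1348 of the 12850 genes tested.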

How the data were processed

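RNA from 16 tumors was captured with oligo-dT, made into dUTP strand-marked libraries and sequenced on a DNBSEQ instrument, per the labels. The values deposited by the authors are FPKM, rounded to 2 decimals, for 18929 genes in 16 columns, all of which were used. The submitters' processing notes name HISAT, Bowtie2 and the build mm10. The program that computed FPKM and the annotation are not given in the sources used here, and read counts were not used here, which leaves the sequencing depth unknown.

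Groups came from the tumor labels. Values were taken as log2(FPKM + 1). Genes had to reach 0.5 FPKM in at least 4 tumors, which 12850 did. They were tested with limma 3.58.1 in R 4.3.3 (linear model, empirical Bayes with a mean-variance trend), with 1 mean per group over all 16 tumors and Benjamini-Hochberg adjustment over all genes tested (threshold 0.05). P-values measure the spread between tumors. The Cd8a to Cd4 balance was compared with exact two-sided permutation tests (70 splits each), adjusted over 6 comparisons. The 4 relations between genes used 100000 permutations within groups. The fit was tested on simulated data. Python 3.11.15 with numpy 2.4.6, scipy 1.17.1, pandas 2.3.3 and matplotlib 3.10.9 was used.

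The 10 genes, the gene lists and the tests were chosen with earlier results of these data known. Named besides the 10 are the 3 signaling genes with the largest and the 3 with the smallest fold change, up to 3 genes with the highest mean of each marker list, and the 5 genes most like the 10 by Pearson's r. Eomes, Foxp3, Icos, Siglech, Klra8, Lcp2, Vav1, Tyr and Sit1 were named after their values were seen. Gene positions are from GENCODE M21. Alternatives were other pseudocounts, filters, scalings, variance priors and samples in the fit, a replicate block and leaving out each tumor in turn.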

Additional observations from a re-analysis of the deposited data

Results flagged for a closer look

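α-KG tumor 2 stood apart from the other 3 α-KG tumors in 8 of the 10 genes, by a gap in FPKM larger than the 95% critical value of Dixon's test for 4 samples. On the log2(FPKM + 1) scale, which was not examined in this way, these gaps are smaller relative to the range, and fewer genes may exceed it. It was at 5.18 FPKM for Cd3d (the others at 0.27 to 1.00), 3.32 for Cd3e (0.73 to 0.96), 9.32 for Cd3g (1.23 to 2.34) and 3.63 for Cd8a (0.56 to 0.59). It was at 1.98 FPKM for Cd4 (the others at 0.42 to 0.60), 7.50 for Lck (2.11 to 2.70), 2.37 for Zap70 (0.37 to 0.48) and 6.90 for Cd2 (1.44 to 2.23). For normally distributed values chance gives such a gap in about 1 in 20 groups of values, and 44 groups of values were examined. FPKM values can be skewed, so this rate may not hold here. The 8 values come from the same tumor and are not independent. The summed level of 6 B cell genes was also highest in this tumor, 36.9 FPKM against 5.44 to 10.6 FPKM in the other α-KG tumors. Its Csf1r level, 24.5 FPKM, lay within the 21.8 to 27.3 FPKM of the α-KG group.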

How the results depend on the processing

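Each of 7 contrasts was recomputed for the 10 genes under 26 or 27 alternatives. Some of these cannot change a fold change or its direction, only its error and call. They are other filters and variance priors, the replicate block, fitting only the groups compared, and leaving out a tumor outside the contrast. For the combination against vehicle all 270 log2 fold changes kept their direction and their call. Against anti-PD1, 73 of 270 lost the call and 4 gained it. The number of genes called there, 9 of 10, was 3 with a pseudocount of 0.1, 4 with no filter on low values, 5 after quantile normalization, 0 with only the groups compared, 8 with the replicate block, and 0 to 10 with each tumor left out in turn. Against α-KG, 6 of 270 lost the call, all of Cd4. The interaction gave 0 calls, and 0 to 1 with a tumor left out, and its size was 0.17 to 2.13 over the genes and alternatives. The direction turned for Lck in α-KG against vehicle (-0.0070 to 0.48 with a tumor left out, the lowest without α-KG tumor 2) and, in α-KG minus anti-PD1, for Cd4 and Cd2, which were near 0. With a tumor left out Cd4 was -0.23 to 0.12 and Cd2 -0.42 to 0.15. Cd4 was -0.062 and -0.0011 with pseudocounts of 0.1 and 0.5, -0.013 after quantile normalization and -0.016 after rescaling without hemoglobin genes. The Cd8a to Cd4 balance of α-KG minus vehicle was -0.085 to 0.18, that of anti-PD1 minus vehicle 0.57 to 1.09 and that of α-KG minus anti-PD1 -1.03 to -0.52 with a tumor left out. The relation of Cd4 with Csf1r was 0.580 after quantile normalization (adjusted permutation p = 0.0636). The causes were not tested. Replicate numbers did not pair the tumors: over 24 pairs with the same number, the r of deviations was -0.64 to 0.41, and 3 of 16 tumors were most like one with their own number. The replicate block gave balances of 1.75 for the combination minus vehicle (exact permutation p = 0.13, the smallest it allows), and it changed no count of calls by over 1.5 times. Depth is unknown and limits the values under 1 FPKM, which are most of those in vehicle tumors.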
